A study of Mus musculus with 3 samples.

Results

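The Hedgehog ligand *Shh*, its receptors and membrane proteins *Ptch1*, *Hhip*, *Gas1* and *Smo*, the cytoplasmic inhibitor *Sufu* and the transcription factors *Gli1*, *Gli2* and *Gli3* were examined in RNA-Seq counts of the embryonic upper jaw. These 9 genes were chosen by name as the core of the pathway, out of 55401 gene rows in the counts. All 9 passed the minimum used for testing, a mean of 10 counts. The 3 libraries came from maxillary processes of E10.5 *wnt1cre; Rosa26Dlx2/-* mouse embryos, in which Cre driven by *wnt1* removes a stop cassette in front of a Flag-tagged *Dlx2* in the *Rosa26* locus. They are called OE replicates 1, 2 and 3, after their order of deposit, and all 3 carry the same genotype and age. No wild-type sample was analysed here. All values below describe *Dlx2*-overexpressing tissue, and genotypes were not compared. The *wnt1* driver acts in the neural crest lineage, which gives rise to the facial mesenchyme and not to the covering epithelium. Whole prominences were sequenced, so both tissues contributed RNA, and the sources used here do not say how many embryos went into each sample.

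Hedgehog ligands are secreted lipid-modified proteins. In the absence of ligand, the receptor Ptch1 holds the membrane protein Smo inactive, and Gli3 and part of Gli2 are processed into repressors of transcription. When ligand binds Ptch1, Smo is released and full-length Gli proteins enter the nucleus, where they activate genes that include *Gli1*, *Ptch1* and *Hhip* themselves. In the developing face, *Shh* is known to be made by epithelium and endoderm and by the adjoining forebrain, whereas the response is read mainly in neural crest mesenchyme.

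*Dlx2* had 9089, 7150 and 6890 counts in OE replicates 1, 2 and 3. Counts on genes per library ranged from 35351031 to 40057435. Some markers of tissues other than facial mesenchyme and epithelium differed widely between the libraries. In counts per 1000000 counts on genes after TMM scaling (CPM), 9 neuronal markers summed to 273 in replicate 1 against 24.3 and 35.9 in replicates 2 and 3, and 6 pigment cell markers summed to 6.74, 38.4 and 163. *Xist*, the RNA that coats the inactive X chromosome of female cells, had 25915 counts in replicate 1 and 11 and 21 in the others. The libraries also differed by a trend with gene length, largest in replicate 3. The log2 CPM of replicate 3 minus the mean of the other 2 libraries, here called its departure, had a median of 0.64 over genes of up to 2000 exonic bases and of -0.56 over genes of more than 8000. In replicate 1 the same medians were -0.45 and 0.40.

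The ligand *Shh* (ENSMUSG00000002633, mm10 chr5:28456815-28467256, minus strand) was among the 2 least abundant of the 9 genes, with *Hhip*. It had 126 counts in replicate 1, 42 in replicate 2 and 27 in replicate 3. These counts corresponded to 3.26 CPM (95% exact Poisson interval 2.72 to 3.89), 1.18 CPM (0.850 to 1.60) and 0.717 CPM (0.472 to 1.04). The interval of replicate 1 lay above those of the others, which overlapped, and the intervals cover counting error only. The mean was 1.72 ± 1.36 CPM (SD, n = 3), a 4.55-fold span from the highest to the lowest library, and without replicate 1 the mean was 0.948 CPM. In such bulk tissue, fewer cells that express a gene and less RNA per cell cannot be told apart. *Shh* shared 446 exonic bases with 9530036O11Rik and 361 with Gm26894, both annotated on the opposite strand. The former was at 0 counts in all 3 libraries, and the latter had no row in the counts. The strand setting of the counting is not given in the sources used here. It is thus not known whether reads on the shared bases were counted for *Shh*, for a partner or set aside as ambiguous. Ambiguous reads were 6.11%, 6.10% and 6.96% of counted reads in replicates 1, 2 and 3.

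The other Hedgehog ligand genes had fewer counts still. *Ihh*, known from cartilage and gut, had 4, 11 and 15 counts in replicates 1, 2 and 3, and *Dhh*, known from gonad and peripheral nerve, had 1, 2 and 7. Replicate 1, which had the most *Shh* counts, had the fewest of both, at counts too low to rank the libraries firmly. Of the 4399 exonic bases of *Dhh*, 546 are shared with a gene on the same strand and 1107 with a gene on the opposite strand. Genes for the release of the ligand were better covered. *Hhat*, which palmitoylates the ligand, was at 8.72 ± 1.62 CPM (SD, n = 3) and *Disp1*, the transporter that frees it from the producing cell, at 31.5 ± 1.82 CPM. Of the secreted carriers, *Scube1* was at 85.1 ± 5.52 CPM and *Scube3* at 93.9 ± 18.3 CPM, while *Scube2* had 9, 12 and 11 counts.

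*Ptch1* (ENSMUSG00000021466, chr13:63508328-63573598, minus strand), the ligand receptor and a classical target of Gli activity, had 3546, 2910 and 2062 counts. These were 91.9, 81.8 and 54.7 CPM, with replicate 3 well below both others, and a mean of 76.1 ± 19.2 CPM (SD, n = 3). *Hhip* (ENSMUSG00000064325, chr8:79965851-80058006, minus strand), a membrane decoy that binds the ligand and is likewise a known target, was far lower. It had 156, 55 and 45 counts, or 4.04 CPM (95% exact Poisson interval 3.43 to 4.73), 1.55 CPM (1.16 to 2.01) and 1.19 CPM (0.871 to 1.60). Its antisense neighbour Gm27820, with which it shares 175 bases, was at 0 counts in all libraries. As for *Shh*, replicate 1 stood above the others, whose intervals overlapped. Its mean was 2.26 ± 1.55 CPM (SD, n = 3), and 1.37 CPM when replicate 1 was left out.

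*Gas1* (ENSMUSG00000052957, chr13:60174405-60177365, minus strand), a co-receptor anchored in the outer membrane leaflet, was among the most even members. It had 6322, 6137 and 7577 counts, or 164, 172 and 201 CPM, with a mean of 179 ± 19.5 CPM (SD, n = 3). Of its exonic length, 19.9% is shared with the antisense gene Gm48488, which had 14, 14 and 6 counts. The related co-receptors *Boc* and *Cdon* were at 26.5 ± 1.50 and 60.4 ± 15.3 CPM. *Cdon* was lower in replicate 3, at 42.7 CPM, than in replicates 1 and 2, at 68.9 and 69.5 CPM. *Lrp2*, an endocytic receptor of epithelia that binds Shh, was at 18.2, 11.0 and 8.44 CPM and, like *Shh*, highest in replicate 1.

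*Smo* (ENSMUSG00000001761, chr6:29735503-29761365, plus strand), the transducer that Ptch1 inhibits, had the most counts of the 9 genes in replicates 1 and 2, while in replicate 3 its 7501 counts were close to the 7577 of *Gas1*. *Smo* was at 281, 299.9 and 199 CPM, a mean of 260.0 ± 53.6 (SD, n = 3), with replicate 3 below the others. *Sufu* (ENSMUSG00000025231, chr19:46396896-46488804, plus strand), which binds Gli proteins in the cytoplasm and restrains them, was at 93.1, 91.6 and 70.7 CPM and averaged 85.1 ± 12.5 CPM. Replicates 1 and 2 were close for *Sufu* and replicate 3 was lower. Among 14 further genes that act between Smo and the Gli proteins, the levels per exonic length ran from 1.93 ± 0.383 RPKM for the ciliary gene *Efcab7* to 52.3 ± 2.08 RPKM for *Prkaca*, the catalytic subunit of protein kinase A, which phosphorylates Gli proteins. *Evc*, which encodes a partner of Smo at the base of the cilium, was at 43.6, 56.2 and 98.9 CPM, so its order of libraries was the reverse of that of *Gli3*.

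The *Gli* genes took 3 different patterns over the same libraries. *Gli1* (ENSMUSG00000025407, chr10:127329882-127341974, minus strand), an activator whose transcription is widely used as a readout of the pathway, had 2033, 2425 and 3660 counts. It was at 52.7, 68.1 and 97.2 CPM, highest in replicate 3, with a mean of 72.7 ± 22.6 (SD, n = 3). *Gli2* (ENSMUSG00000048402, chr1:118834132-119053619, minus strand), the main activator downstream of Smo, stayed within a narrow range at 80.5, 89.3 and 86.6 CPM, a mean of 85.5 ± 4.50. *Gli3* (ENSMUSG00000021318, chr13:15463235-15730026, plus strand), which supplies most of the repressor, was at 127, 108 and 75.2 CPM, highest in replicate 1, with a mean of 103.5 ± 26.4. For these genes too the partners on the opposite strand had few counts or shared few bases. *Gli1* shared 265 bases with Gm47200, at 0 counts in all libraries, and 62 with *Arhgap9*, at 129, 161 and 217 counts, and *Gli3* shared 188 with Gm6556, at 14, 9 and 37 counts. The libraries highest and lowest in *Gli1* were thus the lowest and highest in *Gli3*. The 3 proteins, translated from GENCODE M21, have 1111, 1544 and 1583 residues for Gli1, Gli2 and Gli3. Over their whole length Gli2 and Gli3 were identical at 52.5% of aligned positions, against 46.1% for Gli1 and Gli2 and 44.0% for Gli1 and Gli3. Within the 151 residues that hold their 5 zinc fingers, by which they bind DNA, these values were 92.7%, 85.4% and 86.8%.

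**Figure D1:**
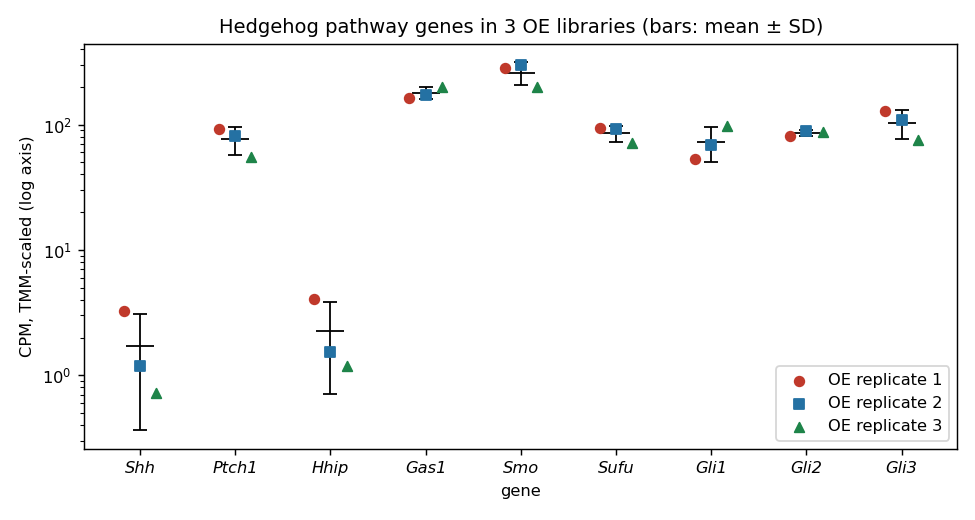
CPM (log scale) of the 9 genes in each OE library, with 1 point per library in its own colour and black bars for the mean ± SD. *Smo* sits highest with a mean of 260.0 CPM, the 7 genes from *Smo* to *Gli1* stay above 50 CPM in all libraries, and *Shh* and *Hhip* lie apart at 1.72 and 2.26 CPM with replicate 1 on top.

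Promoter windows of the genes were searched for the Gli core, since *Ptch1* and *Hhip* are known Gli targets. RefSeq windows (GRCm38.p6, 250 bases before to 50 after the annotated start) were found for 7 of the 9 genes, all except *Shh* and *Gli1*. The core GACCACCCA was read on both strands. It was in 0 of these 7 windows, against 0.253% of 32851 mouse promoter windows. With up to 1 mismatch it was again in 0 of the 7, against 6.74% of all windows. Further short cores were chosen after values were seen. TAATTA, a core bound by homeodomain proteins, was in 0 of the 7 windows, against 5.29% of all. CACGTG, the E-box of basic helix-loop-helix proteins, was in 0, against 7.15% of all. TGTGGT, bound by Runx proteins, was in 1, that of *Gli3*, on the minus strand from base -120 to -115 before the start, against 16.8% of all. The 250 bases before the start are shown for *Ptch1* and *Hhip*, the targets of the group, and for *Gli3*, the 1 match, with the reverse complement of TGTGGT in capitals. They are the strand of the gene, from chr13:63565736-63565985 (minus strand), chr8:80058009-80058258 (minus strand) and chr13:15463473-15463722 (plus strand).
Ptch1: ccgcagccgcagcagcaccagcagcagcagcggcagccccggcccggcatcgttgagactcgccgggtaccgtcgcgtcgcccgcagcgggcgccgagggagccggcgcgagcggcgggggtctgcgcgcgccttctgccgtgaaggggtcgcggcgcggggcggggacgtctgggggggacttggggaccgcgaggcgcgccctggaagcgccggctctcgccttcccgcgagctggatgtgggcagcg
Hhip: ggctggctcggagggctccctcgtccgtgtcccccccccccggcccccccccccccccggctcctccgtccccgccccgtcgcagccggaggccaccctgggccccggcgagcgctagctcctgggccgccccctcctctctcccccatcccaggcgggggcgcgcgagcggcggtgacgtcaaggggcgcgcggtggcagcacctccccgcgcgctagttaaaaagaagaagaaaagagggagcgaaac
Gli3: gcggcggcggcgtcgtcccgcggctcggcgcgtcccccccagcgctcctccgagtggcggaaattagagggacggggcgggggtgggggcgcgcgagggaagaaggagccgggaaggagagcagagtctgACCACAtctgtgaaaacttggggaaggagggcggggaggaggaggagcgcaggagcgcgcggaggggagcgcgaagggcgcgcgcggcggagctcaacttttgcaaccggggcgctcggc
The *Ptch1* and *Gli3* windows lie inside the outer limits of their genes as GENCODE annotates them. A match of letters is not a bound site, and absence of a match describes only these windows.

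Levels can be compared between genes only per length, so CPM was divided by the exonic length in kilobases (RPKM). The genes then ran from *Gas1* at 60.5 ± 6.60 RPKM (SD, n = 3) and *Smo* at 46.3 ± 9.54 through *Gli1* at 14.5 ± 4.52, *Gli2* at 12.4 ± 0.655, *Sufu* at 11.1 ± 1.63 and *Gli3* at 10.8 ± 2.75 to *Ptch1* at 5.37 ± 1.35, *Shh* at 0.604 ± 0.477 and *Hhip* at 0.249 ± 0.171. Not every step in this order was larger than the spread between libraries. *Smo* lay above *Gli1* by 1.69 ± 0.73 in log2 RPKM, *Gli3* above *Ptch1* by 1.01 ± 0.037, *Ptch1* above *Shh* by 3.41 ± 0.79 and *Shh* above *Hhip* by 1.19 ± 0.23, each with the same sign in all 3 libraries and a mean difference above its SD. *Gas1* and *Smo* (0.40 ± 0.46), *Gli1* and *Gli2* (0.18 ± 0.40), *Gli2* and *Sufu* (0.18 ± 0.26) and *Sufu* and *Gli3* (0.06 ± 0.18) did not differ beyond their spread. Replicates 2 and 3 gave the 9 genes the same order. In replicate 1, *Gli3* came right after *Smo*, and *Gli1* fell to the sixth place. Per coding base, the mean of *Hhip* minus *Shh* was -0.20 in place of -1.19, and the order became *Gas1*, *Smo*, *Sufu*, *Gli3*, *Gli1*, *Gli2*, *Ptch1*, *Shh* and *Hhip*, so the order of the middle genes depended on the length used. The step from *Shh* to *Hhip* was then within its SD of 0.23 and so not larger than the spread. *Gli3* and *Ptch1* were also closer, at 21.8 and 16.9 CPM per coding kilobase. The receptor *Ptch1* is annotated with 14185 exonic bases, more than any other member, and the co-receptor *Gas1* with 2961.

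**Figure D2:**
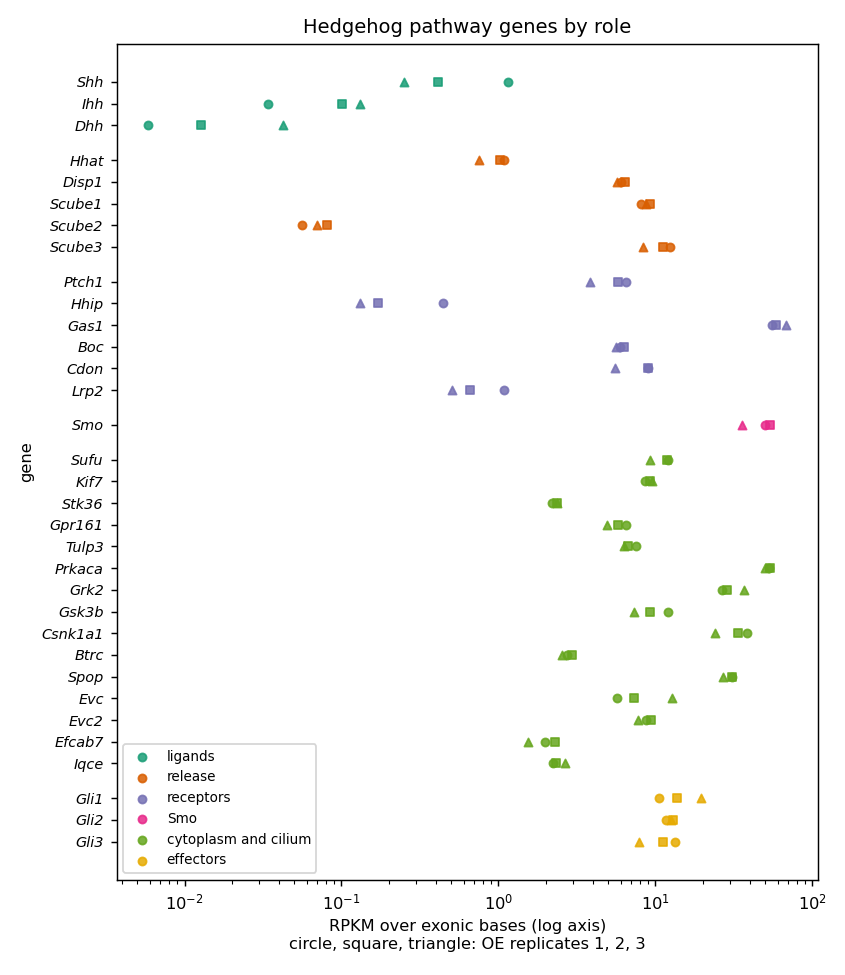
RPKM over exonic bases (log scale) of the 9 genes and 24 other pathway genes, in rows coloured by role, with a circle, square and triangle for OE replicates 1, 2 and 3. *Gas1* lies farthest right, with a mean of 60.5 RPKM, and *Shh* and *Hhip*, with means of 0.604 and 0.249 RPKM, lie left of all other members with replicate 1 on their right.

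The spread of each gene between the libraries was set against counting noise. In a chi-square test of the 3 counts against the scaled library sizes, with Benjamini-Hochberg adjustment over all genes averaging 10 counts or more, all 9 genes were beyond counting noise. This share is read against a background of 81.5%, since 13951 of 17115 genes tested were called, so passing it does not set these genes apart. The test compares libraries, not conditions. The coefficient of variation ranged from 5.27% for *Gli2* to 78.9% for *Shh*, with *Hhip* at 68.7% next to it. Its median over the 9 genes was 25.2%, against 27.0% over all genes tested. Without replicate 1, 6 of the 9 were beyond counting noise, against 71.2% of all genes in that fit, and *Shh*, *Gli2* and *Hhip* were not. Without replicate 3, 8 were, against 48.8% of all genes, and *Sufu* was not.

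The direction of the spread was uneven. Of the 9 genes, 6 were lowest in replicate 3, which is 66.7%, against 45.6% of all genes tested, and 5 were highest in replicate 1, which is 55.6%, against 39.6% of all genes. The median departure over the 9 genes was 0.21 in replicate 1, 0.10 in replicate 2 and -0.54 in replicate 3, against medians of 0.01, 0.03 and -0.03 over all genes. *Ptch1*, *Gli3*, *Smo* and *Sufu* had departures of -0.66, -0.64, -0.54 and -0.39 in replicate 3. *Gli1* and *Gas1* went the other way there, at 0.70 and 0.26.

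**Figure D3:**
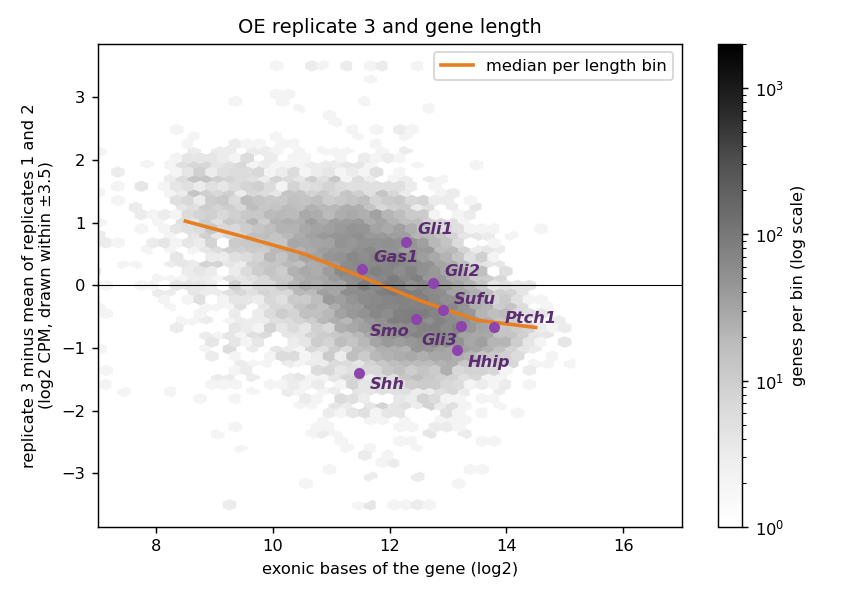
Departure of OE replicate 3 (log2 CPM minus the mean of replicates 1 and 2) against exonic bases (log2) for all genes tested, shaded by the number of genes per bin on a log scale, with the median per length bin as a line and the 9 genes as labelled points. The line slopes down with length, *Ptch1* at -0.66 and *Gli3* at -0.64 lie close to it, *Gli1* at 0.70 lies above it and *Shh* at -1.39 below it.

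Several of these departures were of the size that genes of the same length and GC content showed. When a smooth fit on exonic length and GC was subtracted in each library, the departure of *Ptch1* in replicate 3 was -0.09 and that of *Gli3* was -0.18. For *Gas1*, a short transcript, it turned from 0.26 to -0.21. *Smo* was at -0.73 and *Sufu* at -0.39 in replicate 3 after this step, so for these genes it did not shrink. *Gli1* was at 0.42 in replicate 3 and -0.48 in replicate 1. *Shh* was at 1.92, -0.31 and -1.61 in replicates 1, 2 and 3, in place of 1.77, -0.37 and -1.39. *Hhip* was at 1.03, -0.70 and -0.33, in place of 1.54, -0.50 and -1.04, so it was still highest in replicate 1 but lowest in replicate 2. The median over the 9 genes moved from -0.54 to -0.21 in replicate 3. What set the trend was not tested.

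**Figure D4:**
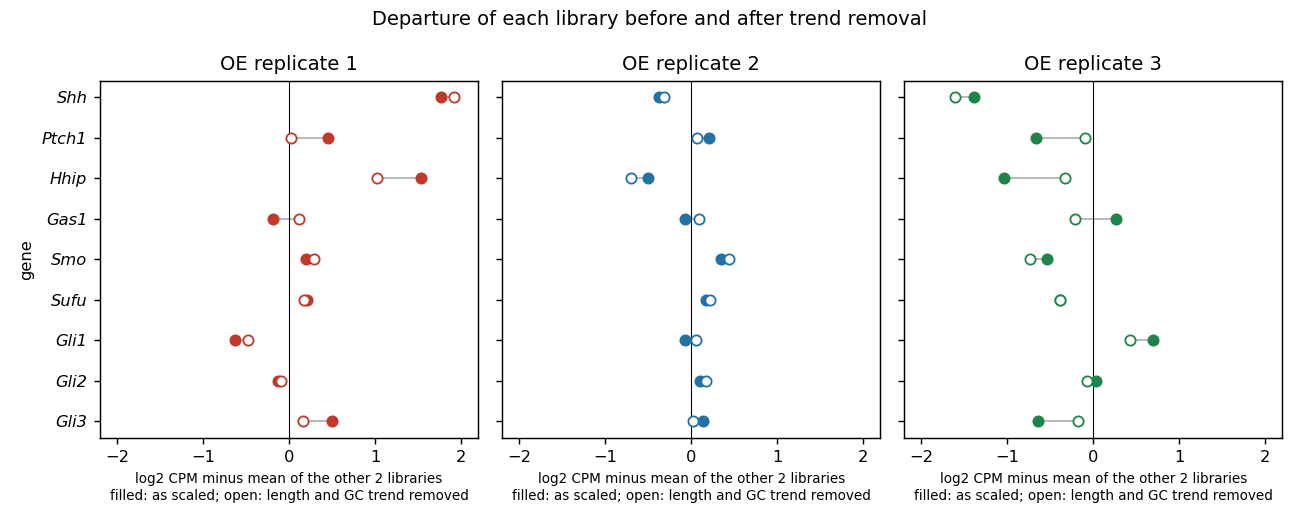
Departure of each OE library (log2 CPM minus the mean of the other 2 libraries, 1 panel per library) for the 9 genes, with filled points as scaled and open points after removal of the length and GC trend. In replicate 3, *Ptch1* moves from -0.66 to -0.09 and *Gli3* from -0.64 to -0.18, whereas in replicate 1 *Shh* goes from 1.77 to 1.92 and *Hhip* from 1.54 to 1.03.

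Levels within 1 library were then compared as ratios. *Ptch1* minus *Smo* was -2.95, -3.21 and -3.20 in log2 RPKM in replicates 1, 2 and 3, a mean of -3.12 ± 0.15 (SD, n = 3). The receptor thus stayed well below the transducer it inhibits, over a range of 0.262, which became 0.676 with the length and GC trend removed. *Gli1* minus *Gli3*, an activator target against the main repressor, was -0.33, 0.28 and 1.31, a mean of 0.42 ± 0.83 in which the libraries did not share a sign, and its mean per coding base was -0.012. *Gli2* minus *Gli3* was -0.18, 0.21 and 0.68, and likewise crossed 0. After removal of the length and GC trend, *Gli1* minus *Gli3* was -0.01, 0.44 and 0.82. *Gli2* minus *Gli3* was then 0.065, 0.34 and 0.31, above 0 in all 3 libraries, and its range went from 0.865 to 0.275. Per coding base its mean was -0.25, so its sign depended on the length used.

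*Gli1* and *Ptch1* are both used as readouts of Hedgehog activity, and in these libraries they moved apart. *Gli1* minus *Ptch1*, a ratio chosen after the values were seen, was 0.70, 1.24 and 2.33 in log2 RPKM in replicates 1, 2 and 3, a range of 1.63 with a mean of 1.43 ± 0.83 (SD, n = 3). With the trend removed it was 1.09, 1.42 and 1.77, a range of 0.681. The order of the libraries held, and the distance between them was smaller. The level of the ratio depended on the length used, with a mean of 0.36 per coding base. For *Hhip*, the further target, *Hhip* minus *Ptch1* was -3.86, -5.08 and -4.87 in log2 RPKM, nearest to 0 in replicate 1. *Shh* minus *Ptch1* was -2.50, -3.80 and -3.94, again nearest to 0 in replicate 1, and with the trend removed it was -2.09, -3.60 and -4.36. *Hhip* minus *Shh*, also chosen after the values were seen, was -1.36, -1.28 and -0.94, with the decoy below the ligand per exonic base in all 3 libraries. With the trend removed it was -1.81, -1.47 and -0.36, and its range went from 0.429 to 1.44.

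The known sources of *Shh* were followed by their markers. Of the 10 epithelial markers, 8 had a departure above 0 in replicate 1, against 8702 of 17115 genes tested, with a median of 0.71. The number highest in replicate 1 was 7, against 39.6% of all genes tested. The 10 summed to 547, 356 and 344 CPM. *Trp63*, which maintains basal epithelium, was at 55.4, 29.6 and 11.4 CPM, and *Esrp1*, an epithelial splicing regulator, at 45.3, 22.1 and 13.1 CPM. The list was not uniform, since the keratin genes *Krt5*, with 17, 17 and 47 counts, *Krt14*, at 17.5, 17.6 and 24.0 CPM, and *Krt18*, at 86.7, 65.5 and 108 CPM, were highest in replicate 3. After removal of the length and GC trend, *Krt5* was still highest in replicate 3, whereas *Krt14* and *Krt18* were highest in replicate 1. Endoderm markers summed to 31.6, 19.9 and 17.2 CPM, and 5 of 6 were higher in replicate 1, with a median departure of 1.20. Among them *Foxa2*, a known activator of *Shh* in endoderm and floor plate, had 56, 2 and 4 counts, and *Pax1*, a marker of the pharyngeal pouches, had 34, 0 and 8. *Nkx2-3* went the other way with 15, 10 and 36 counts, and *Sox17*, with 386, 374 and 285 counts, was highest in replicate 2 after scaling. In contrast, ventral forebrain markers were lower in replicate 1 for all 6 of the 8 genes that averaged 10 counts or more, with a median departure of -2.72, and the 8 summed to 12.2, 73.4 and 78.8 CPM. *Nkx2-1* and *Nkx2-2*, which mark the *Shh*-dependent ventral forebrain, were both at 0 counts in replicate 1, against 11 and 27 and against 2 and 24 in replicates 2 and 3. *Sim1*, which like *Nkx2-2* averaged fewer than 10 counts, went the other way with 13, 1 and 1. Most of the sums in replicates 2 and 3 came from the eye field and forebrain genes *Six3*, at 26.9 and 21.1 CPM, *Six6*, at 28.3 and 29.9 CPM, and *Rax*, at 12.6 and 21.5 CPM. Thus, by the median of each list, the library with the most *Shh* had more RNA of epithelial and endodermal markers and less of ventral forebrain markers. Relative to the median of the epithelial markers in the same library, *Shh* was still uneven, at -3.48, -4.49 and -5.49 in log2 RPKM. The neuronal sum was also highest in replicate 1, at 273 CPM, as *Shh* and *Hhip* were. It was lowest in replicate 2, at 24.3 CPM, whereas *Shh* and *Hhip* as scaled were lowest in replicate 3. Of the 4 cranial muscle markers, 3 were higher in replicate 1, with a median departure of 1.18, and *Myod1* was lowest there with 30, 48 and 54 counts. Median departures in replicate 1 were 0.24 for endothelium, -0.33 for facial mesenchyme, -1.09 for red blood cells and -3.98 for pigment cells. Removal of the length and GC trend gave medians of 1.02 for epithelium, 1.46 for endoderm and -2.79 for ventral forebrain. It gave -0.14 for facial mesenchyme and -0.58 for red blood cells. *Hhip*, then at 1.03, was close to the epithelial median and below the endodermal one, while *Shh*, at 1.92, was above both. The part of each of these tissues in the *Shh* and *Hhip* values was not tested.

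**Figure D5:**
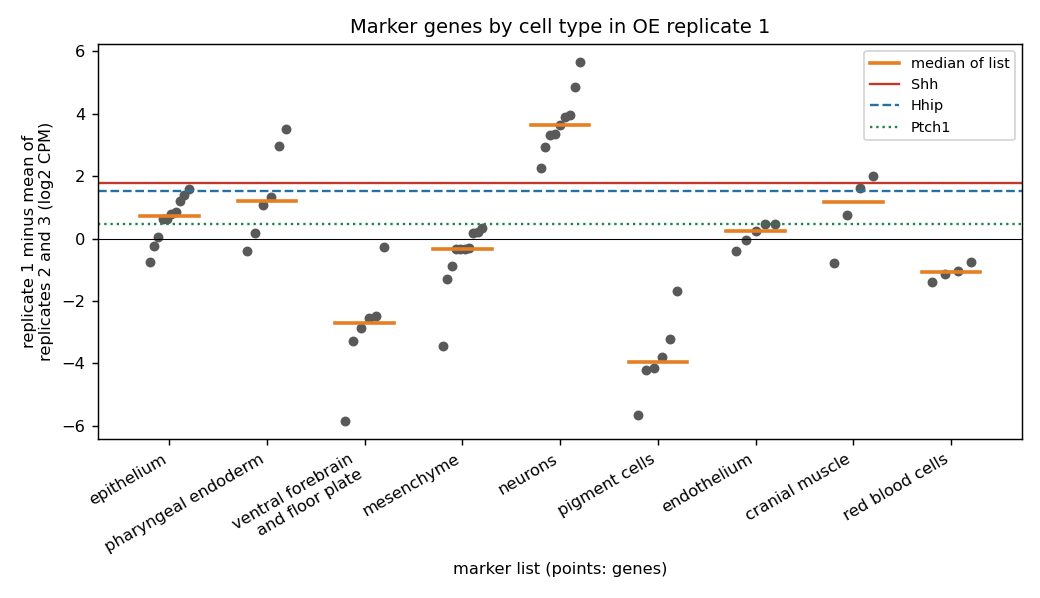
Departure of OE replicate 1 (log2 CPM minus the mean of replicates 2 and 3) for the genes of each marker list with a mean of 10 counts or more, with 1 point per gene, a bar at the median of the list and lines at the values of *Shh*, *Hhip* and *Ptch1*. As scaled, the lines of *Shh* at 1.77 and *Hhip* at 1.54 lie above the epithelial median of 0.71 and the endodermal median of 1.20. Both lie below the neuronal median of 3.64 and far above the ventral forebrain median of -2.72.

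Beyond the 9 genes, the list held 25 further pathway genes, of which 24 averaged 10 counts or more and 21 of these were beyond counting noise, a share close to the 81.5% of all genes tested. Their median coefficient of variation was 16.0%, and the 14 cytoplasmic and ciliary genes among them had 9.36%, against 27.0% over all genes. *Stk36* at 14.8 ± 0.658 CPM (SD, n = 3), *Boc* and *Scube2* were not beyond counting noise, and *Dhh* was not tested. The median departures over the list were 0.02, 0.11 and -0.14 in replicates 1, 2 and 3.

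Of 11 genes known as Hedgehog targets in facial mesenchyme or other tissues, all 11 were beyond counting noise, against 81.5% of all genes tested, with a median coefficient of variation of 18.9%. Their median departure was -0.17 in replicate 1 and 0.15 in replicate 3, and both turned with the length and GC trend removed, to 0.13 and -0.17. Of the 6 forkhead genes in the list, 5 were highest in replicate 3, as were 43.2% of all genes tested, and with the trend removed 2 were, *Foxd1* and *Foxl1*. As scaled, *Foxc2* was at 23.5, 32.4 and 44.0 CPM, in the same order of libraries as *Gli1*, but with the trend removed *Foxc2* was highest in replicate 2 and *Gli1* in replicate 3. In contrast, *Foxf1*, the exception, was at 10.6 ± 1.98 CPM and highest in replicate 2. *Osr2*, which marks palatal mesenchyme later on, was at 2.15, 2.30 and 6.90 CPM. The cell cycle genes *Ccnd1*, at 229, 237 and 110 CPM, and *Ccnd2*, at 373 ± 122 CPM, were lowest in replicate 3, as *Ptch1* was. The targets as a list therefore had no common order of libraries.

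Likeness of pattern was measured as the distance between log2 CPM values centred on each gene's mean over the 3 libraries, within the genes of all lists. With 3 points many genes share a pattern, so these distances are descriptions, and they carry the length and GC trend, which was not removed here. *Shh* was nearest to *Msc*, a transcription factor of branchial muscle, at a distance of 0.21, followed by *Esrp1* and *Hhip* at 0.30. *Hhip* was nearest to the endodermal gene *Foxa1* at 0.20. *Ptch1* and *Gli3* were nearest to each other, at 0.053, the smallest distance between any 2 members. *Gli1* was nearest to *Foxc2* at 0.067, and it stood 1.17 from *Ptch1* and 2.13 from *Shh*, the largest distance between members. *Gli2* was nearest to the ligand carrier gene *Scube1* at 0.033 and *Gas1* to *Iqce* at 0.031. Among all genes averaging 100 counts or more, 2050 of 11859 lay within 0.2 of *Ptch1* but 5 of 11860 within 0.2 of *Shh*. The nearest of the 5 were *Ndst3*, which sulfates heparan sulfate, at 0.063 and *Megf10*, known from muscle precursors, at 0.075, and *Shox2*, *Masp1* and *Met* were the others.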

How the data were processed

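The 3 OE libraries (*wnt1cre; Rosa26Dlx2/-*) were made from E10.5 maxillary tissue (150 bp paired-end reads, poly-A selected). The authors mapped reads to mm10 with STAR 2.7.3a, and HTSeq 0.12.4 is named in the submitters' processing notes. The deposited values are raw whole-number counts per gene. The strand setting and annotation release are not given in the sources used here. Rows that name no gene held 14.2%, 15.7% and 16.4% of counted reads in replicates 1, 2 and 3 and were left out of library sizes.

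Of 55401 identifiers, 55141 matched GENCODE M21 (GRCm38), which gave exonic and coding lengths. Counts were scaled with TMM in edgeR 4.0.16 to CPM, and log2 CPM used a prior count of 2. A count of 0 allows a level of up to 3 counts, or 0.0777, 0.0843 and 0.0796 CPM in replicates 1, 2 and 3. The chi-square test had 2 degrees of freedom, Benjamini-Hochberg adjustment over 17115 genes averaging 10 counts or more, and a threshold of 0.05. The samples were prepared as independent RNA. Its p-values ask whether the 3 counts of a gene differ by more than counting error. They depend on depth as well, so they do not measure the size of the spread between samples. Length and GC trends were fitted with mgcv 1.9.3, and DESeq2 1.42.0 gave alternative size factors. Scripts ran in R 4.3.3 and in Python 3.11.15 with pandas 2.3.3, scipy 1.17.1, numpy 2.4.6, biopython 1.88 and matplotlib 3.10.9. The noise test was tested on simulated data.

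The genes named are the 9 members, those of 15 lists in all, the nearest genes by pattern, and antisense genes that share exonic bases with a member. Members and lists were chosen with earlier results of these data known, so no list is independent evidence. Single values of 1 listed gene are not reported here, and it is counted in the list totals.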

Additional observations from a re-analysis of the deposited data

How the results depend on the processing

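A total of 70 results were recomputed under other scalings (DESeq2 size factors, total counts, upper quartile), another prior count, a Poisson likelihood ratio test, coding lengths, all genes with at least 1 count, removal of the length and GC trend, and without each replicate. With all genes that had at least 1 count, 53.4% were beyond counting noise instead of 81.5%. Leaving out 1 replicate gave 48.8% to 77.7%, the lowest without replicate 3. The count of the 9 genes called ranged from 6 without replicate 1 to 9. Per coding base, *Ptch1* minus *Smo* was -2.71 and *Gli2* minus *Gli3* was -0.25 in log2. Small departures changed sign with the trend removed, for *Gas1* to 0.11, 0.096 and -0.21 in replicates 1, 2 and 3, for *Gli1* to 0.055 in replicate 2 and for *Gli2* to -0.078 in replicate 3. With total counts, *Gli2* in replicate 3 was at -0.10. No departure of *Shh*, *Hhip*, *Ptch1*, *Smo*, *Gli3* or *Sufu* changed sign with the trend removed, the other prior count or the 3 other scalings, the settings under which departures were recomputed. The trend-removed ratio ranges, the *Gli1* minus *Ptch1* and *Hhip* minus *Shh* ratios and the homeodomain, E-box and Runx cores were added after the data were seen. No paired analysis was possible because there is 1 group. Depth limits *Shh* and *Hhip*, whose lower counts of 27 and 45 leave wide intervals.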
